A study of Mus musculus with 36 samples.

Results

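The 94 nuclear genes of the oxidative phosphorylation machinery were examined in the fetal mouse mammary gland, as 94 of the 18193 genes that the arrays measured with a probe set of a single gene symbol. The members were the genes whose symbol began with Ndufa, Ndufb, Ndufc, Ndufs, Ndufv, Sdha, Sdhb, Sdhc, Sdhd, Uqcr, Cox4, Cox5, Cox6, Cox7, Cox8 or Atp5, and the probe set with the highest mean signal stood for each gene. By known function, 74 of them were structural subunits (34 of complex I, 4 of complex II, 8 of complex III, 11 of complex IV and 17 of complex V), 12 were assembly factors (8 of complex I and 4 of complex II) and 8 were isoforms of complex IV subunits that are restricted to particular tissues. In 23 members the probe set carried a suffix that marks possible matches to related transcripts, and 53 members had more than 1 probe set.

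The glands were the fourth inguinal mammary glands of female C57BL/6 fetuses at E19, and peri-ductal stroma and ductal epithelium were captured separately by laser from the sections of each gland. The fetuses were ERKO or wild type for ERα, born to heterozygous parents, and their mothers carried pumps from E8 to E19 that delivered BPA (250 ng/kg per day), the synthetic estrogen EE2 (10 ng/kg per day) or the dimethyl sulfoxide vehicle. Each exposure had 3 litters, with 1 ERKO and 1 wild type fetus taken from a litter. All exposures reached the fetus through the mother, and the disruption of the receptor gene in the ERKO fetuses was not limited to a tissue. Each of the 12 combinations of compartment, genotype and exposure had 3 arrays, and each array held 1 compartment of 1 fetus, with 36 arrays in all. A value is a signal in the linear units of the deposited table, and a change is a difference of log2 signals.

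Oxidative phosphorylation takes place in the inner mitochondrial membrane. Complex I (NADH dehydrogenase) and complex II (succinate dehydrogenase) pass electrons to ubiquinone, complex III (cytochrome bc1) passes them on to cytochrome c, and complex IV (cytochrome c oxidase) transfers them to oxygen, while complexes I, III and IV pump protons that complex V, the ATP synthase, uses to make ATP. Most of the subunits are encoded in the nucleus and imported, and the assembly factors build the complexes without remaining in them. Several complex IV subunits exist as a widely expressed form and a form of heart, skeletal muscle and brown fat, of lung or of testis.

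Most of the member probe sets gave high signals in both compartments. The median of the members lay between the percentiles 93.0 and 97.1 of all genes on every array, and 60 of the 94 members had a mean signal of at least 1000. The median of the mean signals was 2534 for the subunits, 175 for the assembly factors and 134 for the tissue isoforms, and since a signal depends on its probes these levels describe the probe sets and do not rank the transcripts. The brightest member of each complex was Ndufb7 of the membrane arm of complex I (10339.8), the membrane anchor Sdhc of complex II (3628), Uqcrb of complex III (6970.1), Cox6c of complex IV (6918) and Atp5a1, the alpha subunit of the catalytic head of the ATP synthase (9978). Among the subunits, the probe sets of Ndufb4 and Ndufb1 of complex I (20.7 and 50.6) and of Cox7c of complex IV (39.8) had mean signals under 100, where small differences in signal give large changes on the log2 scale. The median SD between arrays of a group, on the log2 scale, was 0.52 over the subunits, 1.02 over the assembly factors and 0.98 over the tissue isoforms, against 1.18 over all genes and 0.65 over the 2528 genes at least as bright as the lower quartile of the members.

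**Figure D1:**
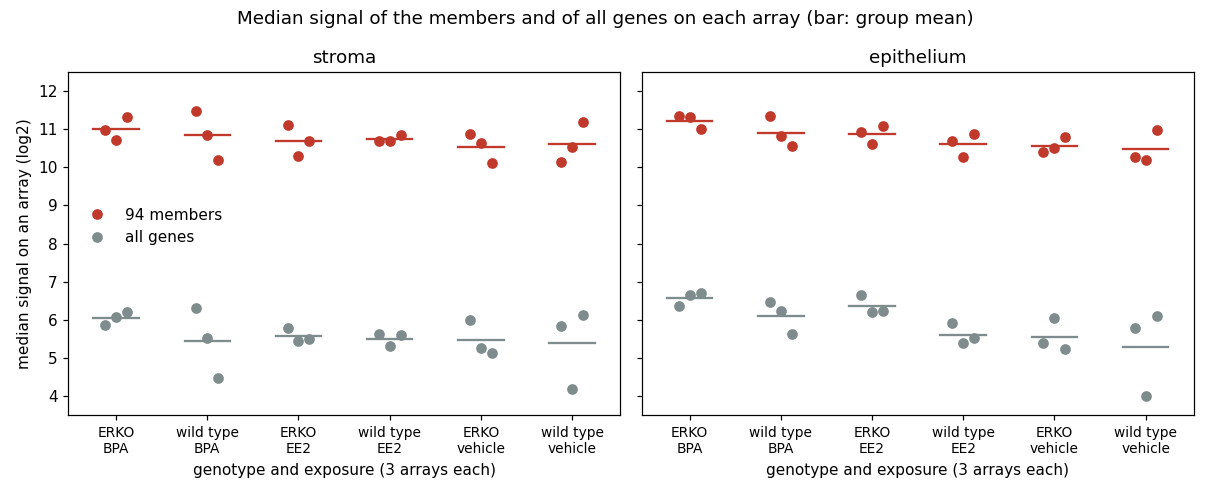
Median log2 signal of the 94 members on each of the 36 arrays, beside the median of all genes on the same array (vertical axis, log2 signal), by compartment, genotype and exposure. The member medians lie between 10.11 and 11.47, and the medians of all genes between 4.02 and 6.71.

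The arrays differed in overall signal, with array medians of 12 to 44.1 (median 27.4) in stroma and 10.9 to 66.8 (median 40.5) in epithelium. The study's methods describe RMA normalization and log-transformed signals, whereas the deposited values are linear and their array medians differ, so that the scaling between arrays behind the comparisons is not known. The dimmest arrays were both compartments of wild type vehicle replicate 2 and the stroma of wild type BPA replicate 3. All 20 epithelium markers were lower in the stroma than in the epithelium, and 17 of 18 fibroblast, 11 of 11 adipocyte and 12 of 12 endothelium markers were higher in it, so that the arrays followed their compartment labels. The summed signal of the fibroblast markers was 48916 to 87918 (median 68854) in stroma and 15413 to 53358 (median 31770) in epithelium, so that these markers were measured in the epithelium arrays too. The study reported high purity of both compartments from quantitative PCR of Krt8, Fabp4 and Pparg. It also reported no significant cross contamination from a principal component analysis. In captured tissue fewer cells of a type and less RNA per cell cannot be told apart. Esr1, the disrupted gene, had lowest, median and highest signals of 13.9, 37.6 and 81.8 in ERKO stroma and 20.3, 114 and 397 in wild type stroma, and of 1.6, 23.1 and 100.2 in ERKO epithelium and 1.1, 36.3 and 142 in wild type epithelium (9 arrays each). Over all exposures the genotypes overlapped in Esr1, with a log2 change of −1.37 in stroma (limma, unadjusted p = 0.027, not past the adjusted threshold). In vehicle stroma they separated, with 26.3, 34.6 and 37.6 in ERKO and 50.4, 201.3 and 396.7 in wild type, but not in BPA or EE2 stroma. The study reported ERα expression in wild type stroma and its absence in ERKO mice. Where the probes lie relative to the disrupted part is not known here, so that this gene did not check the label of every array.

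The first comparison asked whether the stroma and the epithelium of the same gland differed in these genes. Of the 94 members, 1 was higher in the stroma, the heart, muscle and brown fat isoform Cox8b, and 2 were lower, the assembly factors Ndufaf2 and Sdhaf3 (limma with the gland as a block, adjusted p under 0.05 over all probe sets). These 3 were 3.19% of the members, while 24.2% of all genes passed the same test, 6.44% higher and 17.7% lower in the stroma, as did 35.8% of the equally bright genes. None of the 74 subunits passed, and 8 of the 94 members had an unadjusted p under 0.05, 2 higher in the stroma and 6 lower in it, where 36.8% of all genes did (9.19% higher and 27.6% lower). The changes of the subunits ranged from −0.29 (Ndufb4) to 0.40 (Ndufs5). In 71 of the 74 subunits the 95% interval of the change stayed within 2-fold in either direction, a share of 95.9% that compares with 29.4% of all genes and 55.6% of the equally bright genes. The median change was 0.07 over the subunits, −0.44 over the assembly factors and −0.07 over the tissue isoforms, against −0.30 over all genes. All 74 subunits lay above the median of all genes, and 11 of the 12 assembly factors were below 0. The 3′ to 5′ ratio of Gapdh, a measure of RNA integrity, also differed, with 6.01 to 20.8 (median 11.4) in the stroma arrays and 5.09 to 12.9 (median 8.33) in the epithelium arrays, and it was higher in the stroma in 13 of 18 glands, which were all 9 ERKO and 4 of the 9 wild type glands. Its part in the member values was not tested. The study gave an upper bound for such ratios of housekeeping genes and took it as support for RNA integrity. The methods do not name the genes or probe sets behind that bound. In the deposited values the Gapdh ratio lay above the bound on every array, and the reason was not tested.

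Which members passed depended on the scaling between arrays. With quantile normalization the median change was 0.23 over the members and 0.04 over all genes, and 4 members were higher in the stroma, namely Cox8b (2.15), Atp5l of the ATP synthase (0.62) and the complex I subunits Ndufa13 (0.46) and Ndufv3 (0.45), while none was lower, beside 10.7% of all genes higher and 8.99% lower. The median of the tissue isoforms was then 0.27, with its sign turned. With the median of each array subtracted, 14 of the 74 subunits and Cox8b were higher and no member was lower, beside 11.2% of all genes higher and 6.96% lower, and the median change was 0.48 over the subunits, −0.03 over the assembly factors and 0.11 over all genes. No member separated the compartments without overlap, as 0.346% of all genes did. Without the gland of wild type EE2 replicate 2, a gland with high muscle signal, 5 members passed, with Ndufaf4 (−0.62) and Ndufaf7 (−0.89) of complex I assembly in addition to the 3 named. Within the 6 combinations of genotype and exposure the member median lay between −0.19 (ERKO BPA) and 0.20 (wild type vehicle). No member passed in any of them, with 3 glands each, beside 0.22%, 0.995% and 0.33% of all genes in ERKO BPA, ERKO EE2 and ERKO vehicle glands and 0.517%, 0.297% and 0.165% in the wild type glands of those exposures. At an unadjusted p under 0.05 there were 0, 4 and 2 members in the ERKO glands (8.76%, 15.8% and 13.0% of all genes) and 3, 1 and 6 in the wild type glands (15.8%, 13.2% and 14.4%), in the same order of exposures.

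**Figure D2:**
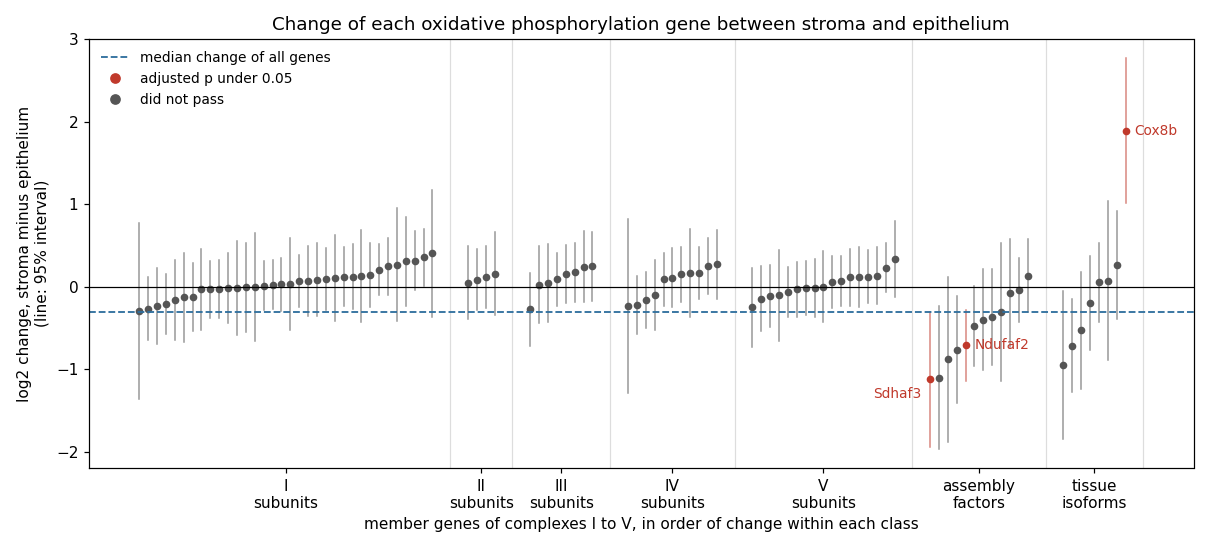
Change of each of the 94 members between stroma and epithelium (vertical axis, log2 signal in stroma minus epithelium, with its 95% interval), grouped into subunits of complexes I to V, assembly factors and tissue isoforms. The subunits lie between −0.29 and 0.40, and the 3 members past the threshold, Cox8b, Ndufaf2 and Sdhaf3, are outside the subunit classes.

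Cox8b encodes the form of complex IV subunit 8 that is known from heart, skeletal muscle and brown fat. Its lowest, median and highest signals were 31.3, 469 and 2078 in stroma and 2.3, 114 and 1182 in epithelium (18 arrays each). The stroma was the higher compartment in 15 of 18 glands, although the ranges overlapped. The means were 496 ± 501 in stroma and 220.1 ± 317 in epithelium (SD, n = 18), with a log2 change of 1.89 (SE 0.42) and a 95% interval of 1.01 to 2.77 (limma, adjusted p = 0.0032). The 3 glands in which the epithelium was higher had all been exposed to BPA, and were ERKO replicate 1 with 642 in stroma and 749 in epithelium, ERKO replicate 2 with 83.8 in stroma and 355 in epithelium, and wild type replicate 1 with 1063 in stroma and 1182 in epithelium. Within the 6 combinations of genotype and exposure the change was −0.26 in ERKO BPA, 3.04 in wild type BPA, 2.64 in ERKO EE2, 1.33 in wild type EE2, 1.21 in ERKO vehicle and 3.36 in wild type vehicle glands, none of which passed the test with 3 glands each. The difference of the compartment change between BPA and vehicle glands was −0.89 (SE 1.07, adjusted p = 0.85) and did not pass either. Without the gland block the adjusted p of Cox8b was 0.051.

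Ndufaf2 is an assembly factor that acts late in the building of complex I. Its lowest, median and highest signals were 441, 1728 and 2319 in stroma and 1037, 2516 and 3732 in epithelium, and the epithelium was the higher compartment in 17 of 18 glands, the exception being wild type EE2 replicate 2 with 2319 in stroma and 1037 in epithelium. The means were 1585 ± 496 in stroma and 2535 ± 686 in epithelium (SD, n = 18), or a log2 change of −0.71 (SE 0.21) with an adjusted p of 0.017 (limma). After quantile normalization the change was −0.51 with an adjusted p of 0.087. Sdhaf3 is an assembly factor of complex II, needed for the iron-sulfur subunit of succinate dehydrogenase. It had 0.5, 64.6 and 213 in stroma and 17.7, 129 and 331 in epithelium (lowest, median and highest), and was higher in the stroma in 4 of 18 glands. Its log2 change was −1.12 (SE 0.39) with an adjusted p of 0.047 (limma). Its call was the least stable of the 3, since it passed in 5 of 18 fits that each left out 1 gland, with adjusted p of 0.032 to 0.079, whereas Cox8b and Ndufaf2 passed in all 18. A second, dimmer probe set of Sdhaf3 changed by −0.26 (SE 0.40) and did not pass, and Cox8b and Ndufaf2 had a single probe set.

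**Figure D3:**
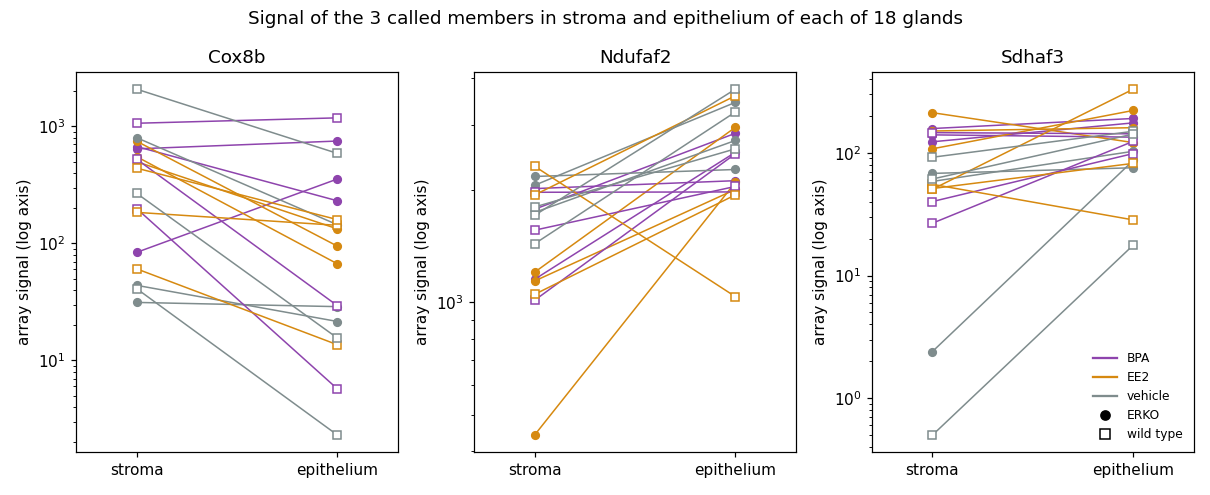
Signal of Cox8b, Ndufaf2 and Sdhaf3 in the stroma and the epithelium of each of the 18 glands (vertical axis, signal on a log axis), with a line joining the compartments of a gland. Cox8b was higher in the stroma in 15 of 18 glands, Ndufaf2 in 1 and Sdhaf3 in 4.

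The sequences just upstream of these genes are shown for the 3 members past the threshold, for Cox8a, the widely expressed partner of Cox8b, and for the stator subunit gene Atp5h, which holds both motifs that are known from promoters of this pathway. Each is the 250 bases before the annotated start, 5′ to 3′ on the strand of the gene, from RefSeq on GRCm38.p6, at chr7:140900447-140900696 (minus strand), chr13:108158626-108158875 (minus strand), chr6:6955768-6956017 (plus strand), chr19:7217617-7217866 (minus strand) and chr11:115419920-115420169 (minus strand) in the order printed. Capitals mark matches, on either strand, to the letters GCGCA and GCGC with any 1 base between them, known from nuclear respiratory factor NRF1, CCGGAAG of ETS factors such as GABP, TATAAA of the TATA box and CAGCTG, an E-box that is bound by myogenic factors in muscle.
Cox8b: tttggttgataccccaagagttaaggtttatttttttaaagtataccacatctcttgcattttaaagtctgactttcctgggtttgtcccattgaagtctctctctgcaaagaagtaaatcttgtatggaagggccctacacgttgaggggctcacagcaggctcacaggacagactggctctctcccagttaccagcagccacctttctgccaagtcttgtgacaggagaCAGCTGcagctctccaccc
Ndufaf2: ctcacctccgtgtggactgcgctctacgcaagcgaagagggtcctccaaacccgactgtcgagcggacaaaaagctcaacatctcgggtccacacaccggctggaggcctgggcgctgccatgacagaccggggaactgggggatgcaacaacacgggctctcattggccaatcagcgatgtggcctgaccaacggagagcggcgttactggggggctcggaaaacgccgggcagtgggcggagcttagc
Sdhaf3: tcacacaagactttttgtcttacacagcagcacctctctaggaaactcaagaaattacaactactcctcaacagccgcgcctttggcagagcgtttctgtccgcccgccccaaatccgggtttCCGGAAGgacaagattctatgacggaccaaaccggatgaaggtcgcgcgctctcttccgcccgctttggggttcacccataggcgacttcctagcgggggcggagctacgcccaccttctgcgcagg
Cox8a: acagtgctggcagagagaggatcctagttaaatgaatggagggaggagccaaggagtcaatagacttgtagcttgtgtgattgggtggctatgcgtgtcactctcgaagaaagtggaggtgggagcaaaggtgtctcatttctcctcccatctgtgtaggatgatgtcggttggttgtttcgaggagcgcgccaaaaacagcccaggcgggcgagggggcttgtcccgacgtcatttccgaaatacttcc
Atp5h: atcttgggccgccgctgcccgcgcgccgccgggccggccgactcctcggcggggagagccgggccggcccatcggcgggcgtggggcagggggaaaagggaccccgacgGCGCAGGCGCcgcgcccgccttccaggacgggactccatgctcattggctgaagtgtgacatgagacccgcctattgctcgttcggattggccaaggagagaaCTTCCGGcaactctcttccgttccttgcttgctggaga
The Cox8b window held a CAGCTG that began 19 bases before the start and none of the other motifs, the Sdhaf3 window held CCGGAAG 127 bases before the start, and the Atp5h window held the NRF1 letters 141 bases and CCGGAAG 38 bases before it. The windows of Ndufaf2 and Cox8a held none of the 4 letter strings. Promoters were found for 78 of the 94 members, and the NRF1 letters stood in 12 of them (15.4%, against 4.23% of 27025 genes), CCGGAAG in 16 (20.5%, against 7.83%), TATAAA in 7 (8.97%, against 14.3%) and CAGCTG in 6 (7.69%, against 14.7%). A match describes letters in a window and not a bound site.

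In the deposited values the changes of the subunits were small across the 5 complexes, although 3 of them passed with quantile normalization and 14 with the array medians subtracted, all higher in the stroma. Ndufb7 had 8324, 10559.7 and 12646 in stroma and 8705, 10224 and 12204 in epithelium (lowest, median and highest), a log2 change of 0.01 (SE 0.14) with a 95% interval of −0.29 to 0.31. Atp5a1 had 6528, 9887 and 11760.2 in stroma and 7547, 10546 and 12110.3 in epithelium, a change of −0.06 (SE 0.14) with an interval of −0.36 to 0.24. The compartments overlapped over most of their range in both genes. The changes of the other brightest members were 0.12 (SE 0.18) for Sdhc, 0.09 (SE 0.15) for Uqcrb and 0.09 (SE 0.15) for Cox6c, with adjusted p of 0.70, 0.73 and 0.72. The subunits that carry the chemistry gave changes of −0.02 for Ndufv1, which binds NADH, −0.13 for Ndufs1, which carries iron-sulfur clusters, 0.08 for the flavoprotein Sdha, 0.16 for the iron-sulfur subunit Sdhb, 0.25 for the Rieske protein Uqcrfs1 and −0.15 for Atp5b, the catalytic beta subunit of the ATP synthase, and none of them passed. By complex, the median change was 0.03 over the 34 subunits of complex I, 0.10 over the 4 of complex II, 0.12 over the 8 of complex III, 0.11 over the 11 of complex IV and 0.00 over the 17 of complex V. The subunits nearest to the threshold were Ndufa13 (0.36, SE 0.17, adjusted p = 0.13), which was higher in the stroma in 16 of 18 glands, and Ndufv3 of the NADH module (0.32, SE 0.17, adjusted p = 0.21). The 3 genes of the ring subunit c of the ATP synthase gave 0.00 for Atp5g1, −0.25 for Atp5g2 and 0.13 for Atp5g3.

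Most of the assembly factors were measured lower in the stroma, and 2 of the 12 passed, both lower, a share of 16.7% beside 17.7% of all genes. After Ndufaf2 and Sdhaf3 came Ndufaf6 at −1.10 (SE 0.41, adjusted p = 0.063), Ndufaf7, a methyltransferase of complex I assembly, at −0.76 (SE 0.31, adjusted p = 0.086), Ndufaf4 at −0.48 (SE 0.24, adjusted p = 0.16) and Ndufaf5 at −0.88 (SE 0.48, adjusted p = 0.20). Ndufaf6 had 1.3, 48.6 and 156 in stroma and 30.2, 88.7 and 166 in epithelium, with a wide overlap at low signal. Ndufaf8, the brightest of the class, gave −0.04 (SE 0.19), and Sdhaf2, which helps to attach the flavin of complex II, gave 0.13 (SE 0.21) and was the member of the class above 0. After quantile normalization the median of the 12 assembly factors was −0.09 against 0.04 over all genes, with 6 of 12 above 0, and none passed.

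Each tissue isoform was set beside its widely expressed partner. Cox8a, the partner of Cox8b, had 444, 747 and 2048 in stroma and 224, 809.9 and 1188 in epithelium, a change of 0.17 (SE 0.26), while the testis form Cox8c gave −0.53 (SE 0.34). Cox7a1, the form of subunit 7a in heart, muscle and brown fat, had 8, 351 and 1286 in stroma and 18.5, 232 and 1917 in epithelium, and its change of 0.07 (SE 0.46) had a 95% interval of −0.89 to 1.03. The widely expressed Cox7a2 gave 0.27 (SE 0.20) and Cox7a2l, which joins complexes III and IV, gave −0.16. Cox6a2, the heart and muscle form of subunit 6a, gave 0.05 (SE 0.23) beside 0.15 (SE 0.16) for Cox6a1, and Cox4i2, known from lung and low oxygen, gave 0.26 (SE 0.31) beside 0.11 (SE 0.17) for Cox4i1. The testis forms Cox6b2 and Cox7b2 were at −0.72 (SE 0.27) and −0.95 (SE 0.43) with adjusted p of 0.063 and 0.12, and Cox7b2 never exceeded 29.9, while Cox6b1 gave 0.25 (SE 0.16). Ndufa4, a subunit that was first placed in complex I and then found with complex IV, gave −0.22 (SE 0.17), and its low-oxygen relative Ndufa4l2 gave −0.20 (SE 0.27). Of these isoforms and partners, Cox8b alone passed the test.

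The isoforms of heart, muscle and fat varied over a wide range between glands, and their levels were read beside adipocyte and muscle markers. The summed signal of the 11 adipocyte markers was 28406 to 62773 (median 48147) in stroma and 5019.5 to 57682 (median 24554) in epithelium, and Adipoq, which encodes the adipocyte hormone adiponectin, had 1867, 4799.9 and 7796 in stroma and 46.7, 1492 and 6821 in epithelium (lowest, median and highest). Over the 18 epithelium arrays the log2 signal of Cox8b followed that of Adipoq with Pearson's r = 0.88 and Spearman's rho = 0.92 (permutation test, adjusted p = 4e-05 over 4 correlations), and r was 0.95 without the 2 arrays farthest from the median of Adipoq. Cox7a1 gave r = 0.88 and rho = 0.90 there (permutation test, adjusted p = 4e-05), and 0.83 without such arrays. Over the 18 stroma arrays Cox8b gave r = 0.61 and rho = 0.66 (permutation test, adjusted p = 0.0091), but r was 0.34 without the 2 farthest arrays, so that the size of r depended on them. Cox7a1 gave r = 0.58 and rho = 0.64 there (permutation test, adjusted p = 0.012), and r = 0.51 without such arrays. After each array's median was subtracted, r was 0.67 for Cox8b and 0.36 for Cox7a1 in the stroma, and 0.85 for Cox8b and 0.83 for Cox7a1 in the epithelium. These arrays came from both genotypes and all exposures, so that differences between groups enter each r and its p. Adipoq itself had a log2 change of 2.10 (SE 1.10) for BPA against vehicle in the epithelium. The p-values also do not allow for likeness between littermates, and correlations within a group were not computed. Ucp1, the uncoupling protein that defines brown fat, stayed between 1.3 and 36.4 on all 36 arrays. Cidea, another gene known from brown fat, had 0.8, 3.05 and 92.1 in stroma and 0.8, 10 and 219.1 in epithelium (lowest, median and highest). Its highest signal was in the epithelium of wild type BPA replicate 1. All 11 adipocyte markers were higher in the stroma, as Cox8b was, and their part in its difference was not tested.

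Skeletal muscle markers had summed signals of 33517 and 16202 in the stroma and the epithelium of ERKO BPA replicate 1, 49494 and 26742 in those of ERKO EE2 replicate 3 and 46543 in the stroma of wild type EE2 replicate 2, and of at most 3443 on every other array. Cox6a2, the heart and muscle form of subunit 6a, had 352 in stroma and 189 in epithelium of ERKO BPA replicate 1, 283 in stroma and 655 in epithelium of ERKO EE2 replicate 3 and 391 in the stroma of wild type EE2 replicate 2, and at most 240.6 on every other array. Of its 5 highest arrays 4 were thus among the 5 with high muscle signal, and the exception was the stroma of ERKO vehicle replicate 1. Without these 3 glands 4 members passed in the comparison of stroma and epithelium, with Cox8b at 1.98, Ndufaf2 at −0.80, Sdhaf3 at −1.47 and, as the addition, Cox6b2 at −0.86 (adjusted p = 0.042).

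**Figure D4:**
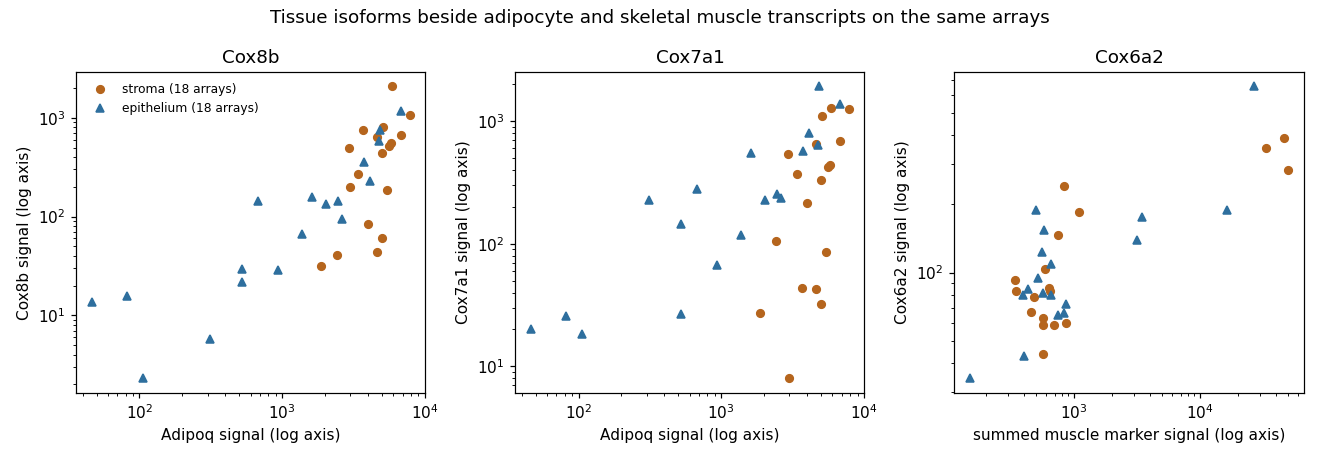
Signal of Cox8b and of Cox7a1 against Adipoq, and of Cox6a2 against the summed signal of the muscle markers, 1 point per array, stroma and epithelium (36 arrays, all axes logarithmic). Cox8b and Cox7a1 rise with Adipoq over the epithelium arrays (r = 0.88 for each), and Cox6a2 is highest at 655 on an array with high muscle signal.

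Neighbouring parts of energy metabolism were read in the same fit, from lists that were chosen with these data already known. Among the enzymes of the TCA cycle and pyruvate dehydrogenase, which supply the electrons, 0 of 17 passed and the median change was 0.01, with Pdhb of pyruvate dehydrogenase at 0.44 (SE 0.18, adjusted p = 0.085) nearest to the threshold, which it passed after quantile normalization (0.60, adjusted p = 0.016). Among cytochrome c, the other electron carriers and the exchangers of ADP and phosphate 0 of 11 passed (median −0.12), with the phosphate carrier Slc25a3 at −0.46 (SE 0.18, adjusted p = 0.075) as the nearest. The glycolysis enzymes and glucose and lactate transporters had 8 of 16 lower and 0 higher in the stroma, beside 17.7% of all genes lower and 6.44% higher (median −0.57, against −0.30 over all genes). Aldoc, an aldolase, had 159.9 ± 138 in stroma and 1263 ± 457 in epithelium, log2 change −3.35, adjusted p = 6.3e-07. Pkm, pyruvate kinase, had 1283 ± 464 in stroma and 2774 ± 679 in epithelium, log2 change −1.16, adjusted p = 0.00074, and Pgk1, phosphoglycerate kinase, had 2583 ± 861 in stroma and 4646 ± 760.2 in epithelium, log2 change −0.90, adjusted p = 0.0012. After quantile normalization 4 of the 16 were lower and 0 higher, with Aldoc at −3.01, Pkm at −0.96 and Pgk1 at −0.73. Of 18 regulators of mitochondrial biogenesis 5 were lower in the stroma and 0 higher (median −0.57), beside the same 17.7% of all genes lower, and 1 was lower and 1 higher after quantile normalization. The 5 were the mitochondrial transcription factors Tfb2m (−1.10) and Tfam (−0.73), the helicase Twnk (−1.16), Yy1 (−0.76) and the GABP subunit Gabpb1 (−0.75). Of the mitochondrial ribosomal proteins 5 of 47 of the large and 2 of 26 of the small subunit were lower and 0 higher, 10.6% and 7.69% beside 17.7% of all genes, with Mrpl19 at −2.32 and Mrpl50 at −0.91, and of 20 assembly factors of the later complexes outside the symbol rule 2 were lower, Sco2 (−1.34) and Cox11 (−0.70), which both bring copper to complex IV. Of 8 genes known from brown fat, the potassium channel gene Kcnk3 was higher in the stroma (1.10) and the deiodinase Dio2 lower (−1.04).

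The second question was whether exposure to BPA or EE2 changed these genes in either compartment, with 6 fetuses of each exposure, 3 ERKO and 3 wild type. These fetuses came from 3 litters per exposure, and the mother received the exposure. The fits had no term for litter and took the 6 fetuses as independent. Their p-values, SEs and intervals over both genotypes thus do not allow for likeness between littermates. None of the 94 members passed for BPA against vehicle in the epithelium, and nor did any gene on the array (0.0% of 18193, limma, adjusted p under 0.05). At an unadjusted p under 0.05 there were 12 members, all higher after BPA, which is 12.8% of them beside 15.5% of all genes. The changes of 87 of the 94 members were above 0, with a median of 0.44, but the median of all genes was 0.61, and the epithelium arrays of the BPA fetuses were brighter as a whole, with a median signal of 29.9 to 66.8, against 10.9 to 42.8 on the vehicle arrays. The member median was 0.18 after quantile normalization, where that of all genes was −0.03, and −0.46 after the median of each array was subtracted, so that its direction turned with the scaling. The summed signal of the adipocyte markers also differed, with 9707 to 57682 (median 40594) after BPA and 5019.5 to 45802 (median 16717) after vehicle, and so did the Gapdh ratio, with 5.09 to 8.77 (median 7.97) after BPA and 8.56 to 12.6 (median 10.8) after vehicle, and the part of either in these changes was not tested.

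The members with the smallest p belonged to different complexes. Ndufb4 had 6.8, 41.6 and 49.7 in BPA-exposed epithelium and 0.3, 6.75 and 11.1 in vehicle epithelium, which left a single BPA array, at 6.8, within the vehicle range (log2 change 2.81, SE 0.77, adjusted p = 0.18). This complex I subunit was read by a dim probe set. Atp5b had 1159, 3199 and 3983 in BPA-exposed epithelium and 816, 1109.7 and 1668 in vehicle epithelium, with overlap between 1159 and 1668 (log2 change 1.22, SE 0.39, adjusted p = 0.20). Cox7a1 had 146, 682 and 1917 in BPA-exposed epithelium and 18.5, 46.9 and 638 in vehicle epithelium, also with overlap (log2 change 3.00, SE 0.99, adjusted p = 0.21). All 3 genes fell short of the adjusted threshold while their means were over 2-fold apart. In all, 16 members had a change above 1, of which 10 had an unadjusted p under 0.05, namely these 3, the complex III subunits Uqcrc1 (1.12) and Uqcrfs1 (1.18), Atp5g2 and Atp5l of the membrane part of the ATP synthase (1.01 and 1.02), and Ndufs5, Ndufb2 and Ndufa10 of complex I (1.42, 1.29 and 1.16). Ndufa4 was the single member whose arrays separated, with 2855, 3346 and 4065 in BPA-exposed epithelium and 2372, 2638 and 2844 in vehicle epithelium (log2 change 0.38, SE 0.29, adjusted p = 0.45), and 1.28% of all genes separated upwards. Cox8b had 5.7, 293 and 1182 in BPA-exposed epithelium and 2.3, 25.1 and 587 in vehicle epithelium (log2 change 2.11, SE 1.32, adjusted p = 0.38), a wide overlap, and of the 7 members measured lower after BPA the nearest to the threshold was Ndufaf2 (−0.35). In 19 members the 95% interval of the change stayed within 2-fold, beside 6.38% of all genes, so that most intervals reached beyond 2-fold.

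EE2, given at a far lower dose than BPA, was compared with vehicle in the epithelium in the same way. No member and no gene passed (0.0% of all genes), and 5 members had an unadjusted p under 0.05, all higher, which is 5.32% beside 7.43% of all genes. The member median was 0.17 and that of all genes 0.35, and 69 of the 94 changes were above 0, although the member median was 0.05 after quantile normalization and −0.37 after the array medians were subtracted. The 3′ to 5′ ratio of Gapdh was 5.46 to 12.9 (median 6.96) after EE2 and 8.56 to 12.6 (median 10.8) after vehicle, the summed adipocyte markers were 6012 to 37540 (median 27469) after EE2 and 5019.5 to 45802 (median 16717) after vehicle, and their part was not tested. Ndufb4 had 8, 37.1 and 47.9 in EE2-exposed epithelium and 0.3, 6.75 and 11.1 in vehicle epithelium (log2 change 2.66, SE 0.77, adjusted p = 0.44). Atp5b had 1096, 2208 and 3707 in EE2-exposed epithelium and 816, 1109.7 and 1668 in vehicle epithelium (log2 change 0.92, SE 0.39, adjusted p = 0.54). The exposures overlapped in both genes, and the comparisons of BPA and of EE2 share the vehicle arrays. Among the members measured lower after EE2 were the assembly factors Ndufaf3 (−0.80) and Ndufaf2 (−0.48) and the membrane anchor Sdhc (−0.42), none past the threshold. The interval stayed within 2-fold in 41 members, beside 8.94% of all genes.

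Set directly against each other, BPA and EE2 differed in dose, so that their contrast compares the exposures as given. No member passed in the epithelium (0.0% of all genes), 1 was higher at an unadjusted p under 0.05 (3.14% of all genes), and 86 of the 94 changes were above 0, with a median of 0.30 beside 0.25 over all genes. Sdhd had 2906, 4765 and 6007 in BPA-exposed epithelium and 1349, 2924 and 4409 in EE2-exposed epithelium (log2 change 0.76, SE 0.35, adjusted p = 1.00), and Sdhd is a membrane anchor of complex II. Cox8a gave 0.77 (95% interval −0.05 to 1.59), Cox7a1 gave 1.85 (−0.25 to 3.96) and the muscle isoform Cox6a2 gave −0.83 (−1.96 to 0.30). In 28 members the interval stayed within 2-fold (10.8% of all genes). In the stroma no member reached an unadjusted p under 0.05 (2.94% of all genes did), the member median was 0.14 beside 0.12, and the interval stayed within 2-fold in 23 members (4.07% of all genes).

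In the stroma the exposures gave fewer small p-values still. For BPA against vehicle no member passed (0.0% of all genes), 1 was higher at an unadjusted p under 0.05 (2.86% of all genes), and the member median was 0.21 beside 0.14 over all genes. That member was Ndufa9, at the joint of the arms of complex I, with 690.2, 864 and 1604 in BPA-exposed stroma and 86.7, 414 and 835 in vehicle stroma (log2 change 1.42, SE 0.58, adjusted p = 0.99). The exposures overlapped between 690.2 and 835. Sdhaf3 had 26.7, 132 and 158 in BPA-exposed stroma and 0.5, 59.9 and 92.1 in vehicle stroma (log2 change 2.33, SE 1.10, adjusted p = 0.99), where the vehicle arrays included signals of 0.5 and 2.4. For EE2 against vehicle no member passed (0.0% of all genes), and 2 had an unadjusted p under 0.05, 1 higher and 1 lower (4.14% of all genes). Ndufb4 had 3.8, 7.05 and 22.3 in EE2-exposed stroma and 5.3, 27.1 and 35.1 in vehicle stroma (log2 change −1.36, SE 0.55, adjusted p = 1.00), the opposite order to that in the epithelium, and Cox8a gave 0.62. The interval stayed within 2-fold in 25 members for EE2 (3.25% of all genes).

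Whether an exposure acted differently in the compartments was tested directly, as the change in the stroma minus that in the epithelium. No member and no gene passed for either exposure (0.0% of all genes), and 3 members for BPA and 2 for EE2 had an unadjusted p under 0.05, all lower, beside 6.49% and 5.73% of all genes. Ndufb4 gave −3.54 for BPA (SE 0.85, adjusted p = 0.55) and −4.03 for EE2 (SE 0.85, adjusted p = 0.37), and Cox7a1 gave −2.55 for BPA (SE 1.03, adjusted p = 0.62). The interaction of each exposure with the genotype was fitted in each compartment, and again no member passed (0.0% of all genes), with at most 2 members at an unadjusted p under 0.05 beside 2.99% to 4.62% of all genes (3.36% for both exposures in the stroma), the smallest adjusted p of a member being 0.81, for EE2 in the epithelium.

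The third question was whether the loss of ERα changed these genes, with 9 ERKO and 9 wild type fetuses over all exposures. In the epithelium no member passed (0.0% of all genes), 5 had an unadjusted p under 0.05, all higher in ERKO (5.32%, beside 6.66% of all genes), and the member median was 0.21 beside 0.34 over all genes, or 0.11 beside 0.00 after quantile normalization and −0.31 after the array medians were subtracted. Ndufaf6 had 69.4, 99.1 and 166 in ERKO epithelium and 30.2, 59.3 and 122 in wild type epithelium (log2 change 0.78, SE 0.29, adjusted p = 0.58). Ndufb10 had 1438, 1793 and 3291 in ERKO epithelium and 255, 1217 and 2663 in wild type epithelium (log2 change 0.87, SE 0.37, adjusted p = 0.59). The genotypes overlapped in both genes. The ERKO epithelium arrays were brighter, with a median signal of 21.2 to 66.8 against 10.9 to 51.1 in wild type epithelium, and had summed adipocyte markers of 13237 to 47199 (median 29276) against 5019.5 to 57682 (median 17053), and the part of these differences in the member values was not tested. In the stroma no member passed and none had an unadjusted p under 0.05 (0.0055% and 3.28% of all genes), the member median was 0.01, and 49 of the 94 changes were above 0. Cox7c, on its dim probe set, averaged 40.2 ± 21.3 in ERKO stroma and 24.9 ± 25.8 in wild type stroma (SD, n = 9), with a log2 change of 1.17 and an adjusted p of 1.00 (limma). The interval stayed within 2-fold in 50 members in the stroma (12.2% of all genes) and in 56 in the epithelium (19.9%).

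The brightest member of each complex gave small changes in the 8 comparisons of exposures and genotypes. They ranged over 0.03 to 0.17 for Ndufb7, −0.42 to 0.57 for Sdhc, −0.22 to 0.24 for Uqcrb, −0.11 to 0.24 for Cox6c and 0.02 to 0.25 for Atp5a1. The widest of them was Sdhc for BPA against EE2 in the epithelium, with 3044, 3786 and 5283 in BPA-exposed epithelium and 1732, 2915 and 3782 in EE2-exposed epithelium (log2 change 0.57, SE 0.31, adjusted p = 1.00), and the exposures overlapped. Atp5a1 for BPA against vehicle in the epithelium had 8864, 11192 and 12110.1 in BPA-exposed epithelium and 7547, 9218 and 10682 in vehicle epithelium (log2 change 0.25, SE 0.28, adjusted p = 0.61), also with overlap.

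**Figure D5:**
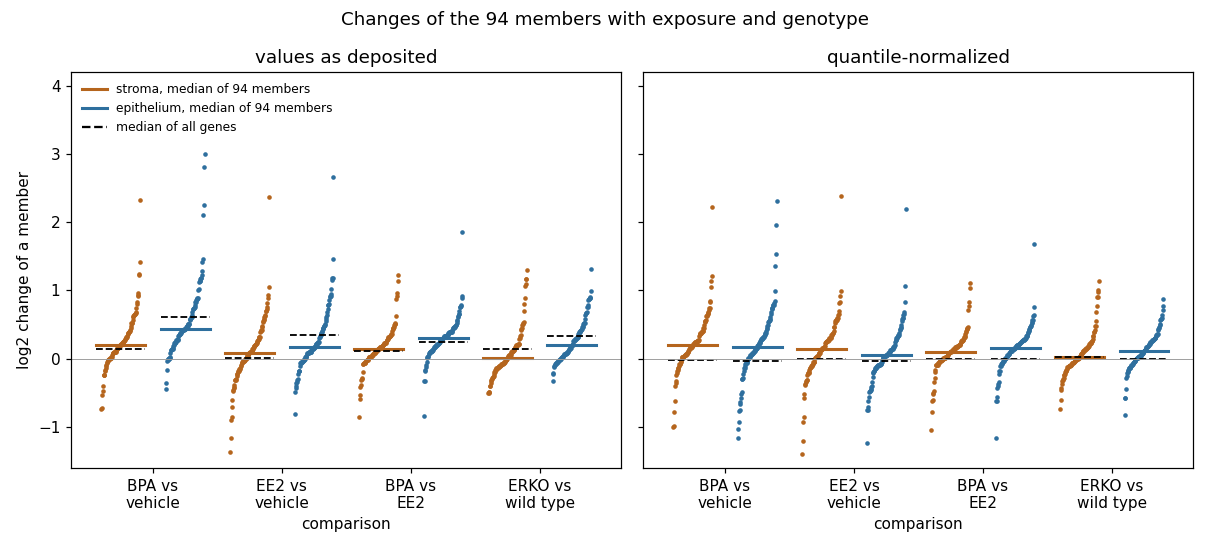
Changes of the 94 members for BPA against vehicle, EE2 against vehicle, BPA against EE2 and ERKO against wild type in stroma and epithelium (vertical axis, log2 change, 1 point per gene), for the values as deposited (left) and after quantile normalization (right), with the medians of the members and of all genes. In the deposited values the member median for BPA in the epithelium is 0.44 beside 0.61 for all genes, and no member passed the adjusted threshold in any of these comparisons.

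Within 1 genotype, where 3 exposed fetuses stood against 3 vehicle fetuses, the separation of the groups was counted. The share of all genes stands beside each count, but it comes from genes of unlike spread. The median SD between arrays of a group was 0.63 over the members and 1.18 over all genes. The share of equally bright genes that separated was not computed, so that these counts do not show an excess among the members. In ERKO epithelium 40 members were higher on all BPA arrays than on all vehicle arrays and 1 was lower, which is 42.6% higher beside 24.6% of all genes and 1.06% lower beside 1.02%. They included subunits of all 5 complexes, among them Ndufs1 and Ndufa9 of complex I, Sdha and Sdhd of complex II, Uqcrc1 and Uqcrfs1 of complex III, Cox4i1 and Cox6a1 of complex IV and Atp5a1 and Atp5b of the ATP synthase, and the member that was lower was Cox8a. The same arrays also separated in overall signal, with array medians of 50.1, 61.5 and 66.8 after BPA and 26.2, 42.8 and 21.2 after vehicle, and in the summed adipocyte markers, with 47199, 40374 and 40814 after BPA and 13237, 20197 and 21379 after vehicle. The Gapdh ratio separated as well, with 8.06, 5.09 and 8.11 after BPA and 12.6, 12.4 and 8.56 after vehicle, and the part of these differences was not tested. In wild type epithelium 6 members were higher and 1 lower after BPA, 6.38% higher beside 9.99% of all genes, and 1.06% lower beside 1.15%. The difference between the genotypes in these counts was not tested as such, and no member passed the interaction test. In the stroma the BPA counts were 19 higher in ERKO (20.2%, beside 9.4% of all genes) and 1 higher and 1 lower in wild type (1.06% in each direction, beside 2.26% higher and 3.99% lower). The ERKO stroma arrays also separated in the summed adipocyte markers, with 50882, 49923 and 58971 after BPA and 43567, 48512 and 28406 after vehicle, and in the Gapdh ratio, with 9.91, 9.49 and 9.24 after BPA and 12.8, 14.0 and 11.8 after vehicle, and the part of either was not tested. After EE2 the counts were 11 higher in ERKO epithelium (11.7%, beside 15.8% of all genes), 2 higher and 1 lower in wild type epithelium (4.08% and 2.63% of all genes), 3 higher and 5 lower in ERKO stroma (3.67% and 5.84%) and 3 higher in wild type stroma (3.05%). The ERKO epithelium arrays separated after EE2 too, in the summed adipocyte markers with 25661, 29276 and 37540 after EE2 and in the Gapdh ratio with 5.46, 7.05 and 6.86, against the vehicle values above, which was likewise not tested. Atp5b in the epithelium of ERKO fetuses shows the size of these shifts, with 2970.4, 3637 and 3428 after BPA and 1668, 825 and 1304 after vehicle. The same arrays gave Ndufa4 signals of 3647, 4042 and 3044 after BPA and 2682, 2594 and 2844 after vehicle. No member and no gene passed the adjusted threshold within a genotype (limma, 0.0% of all genes). At an unadjusted p under 0.05 there were 10 members in ERKO epithelium and 2 in wild type epithelium after BPA (9.55% and 7.8% of all genes), and 3 in ERKO epithelium and 2 in wild type epithelium after EE2 (6.92% and 5.55%). In the stroma there was 1 in ERKO and 1 in wild type after BPA (4.02% and 3.68%), and 0 in either genotype after EE2 (3.77% and 3.92%).

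The lists from neighbouring pathways were read for BPA in the epithelium as well, and none of their genes passed. Of 17 TCA cycle genes 8 had an unadjusted p under 0.05, all higher after BPA (median 0.92), of 47 and 26 mitochondrial ribosomal proteins of the large and the small subunit 12 and 6 did (medians 0.47 and 0.82), and of 18 biogenesis regulators 4 did (median 0.82), where 15.5% of all genes were higher at that p and their median was 0.61. The glycolysis list gave 2 of 16 (median 0.30). Of the 8 genes known from brown fat 4 had an unadjusted p under 0.05 (median 1.65), and the markers of endothelium (median 2.20), adipocytes (median 1.81), leukocytes (median 1.47) and fibroblasts (median 0.97) were likewise above the median of all genes, with none of them past the adjusted threshold. The summed signal of the epithelium markers was 16293 to 27617 after BPA and 12822 to 23890 after vehicle, on arrays that were brighter as a whole after BPA. All these medians are of the deposited values, and the direction of the member median turned with the scaling. In the deposited values, marker genes of the stroma were thus measured higher beside the members in these epithelium arrays, and their part was not tested.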

How the data were processed

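Per the methods, RNA from captured stroma and epithelium was amplified and hybridised to Affymetrix Mouse Genome 430 2.0 arrays. The labels name no gland, and the arrays were taken as 18 glands from the methods and the replicate numbers. The submitters' processing notes name GCOS without a version. The deposited values are linear intensities of 45101 probe sets on 36 arrays, whereas the methods describe RMA normalization in Partek followed by a log transformation, and how the deposited values were scaled is not given in the sources used here. Microarray intensities carry no count depth, so that the number of arrays limits the precision. Values under 0.1 were set to 0.1 (39 were 0) and log2 was taken with no further normalization. Groups came from the labels. Gene symbols came from the platform annotation (34958 probe sets with 1 symbol, 932 with several, 9211 with none).

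Tests were limma 3.58.1 in R 4.3.3 with lmFit and eBayes, and p-values were adjusted by Benjamini-Hochberg over the 45101 probe sets, and a gene was called at an adjusted p under 0.05. Gene counts and medians use the brightest probe set of each of 18193 genes. For stroma against epithelium the gland was a fixed block. The pairing rests on the methods, in which both compartments were captured from 1 gland per fetus, and on the shared genotype, exposure and replicate number of the labels. Same-numbered compartments had a mean residual correlation of 0.101 (−0.0062 to 0.205), against −0.049 for other pairs, and 9 of 18 exceeded 0.1. The other comparisons were fitted within a compartment with all exposures and both genotypes, without a term for litter. Named genes were those called (at most 10 per direction), otherwise the 3 with the smallest p per direction, the brightest member per complex, the tissue isoforms with their partners and up to 3 genes per pathway list, and other members were named for their role after their values were seen. The members and lists were chosen with earlier results of these data known. The fits were tested on simulated data. Alternatives were quantile normalization, median subtraction, an offset of 16, a filter on mean log2 signal, other blocks, other probe sets, only the arrays compared, the methods' t-test and leaving out each array. Correlations used 100000 permutations in Python 3.11.15 with scipy 1.17.1.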

Additional observations from a re-analysis of the deposited data

Results flagged for a closer look

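In 12 of 110 groups of 6 or 9 arrays, the highest or lowest array of a member lay far from the others. The groups were the exposures and the genotypes within a compartment, so that each array stood in a group of either kind. They also mixed genotypes or exposures, so that the share that chance would give is not known. Of the 3 members past the threshold between compartments, Cox8b had 13.6 in the epithelium of wild type EE2 replicate 3, against 66.8 to 159.5 on the other EE2 epithelium arrays. Ndufaf2 had 441 in the stroma of ERKO EE2 replicate 2, against 1141.5 to 2177 on the other ERKO stroma arrays. Sdhaf3 had 2.4 in the stroma of ERKO vehicle replicate 3 (58.5 to 213 on the other ERKO stroma arrays), 0.5 in the stroma of wild type vehicle replicate 2 (26.7 to 146 on the other wild type stroma arrays) and 17.7 in the epithelium of the same gland (75.6 to 149.9 on the other vehicle epithelium arrays). Both arrays of wild type vehicle replicate 2 were the dimmest of their compartment.

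Among the tissue isoforms, Cox7a1 had 8 in the stroma of wild type BPA replicate 3, against 214.5 to 1266 on the other BPA stroma arrays. Cox6a2 had 240.6 in the stroma of ERKO vehicle replicate 1, against 58.9 to 92.5 on the other vehicle stroma arrays, and 188.5 in the epithelium of ERKO BPA replicate 1, against 73.1 to 95 on the other BPA epithelium arrays. That array also had high muscle marker signal. Among the brightest members, Cox6c had 9737 in the stroma of wild type EE2 replicate 3 (6303 to 7359 on the other EE2 stroma arrays) and 5171 in the stroma of ERKO vehicle replicate 3 (6303 to 7572 on the other ERKO stroma arrays). Atp5a1 had 6528 in the stroma of wild type BPA replicate 3, an array of low overall signal, against 9709.7 to 11760.2 on the other BPA stroma arrays and 9128 to 11760.2 on the other wild type stroma arrays.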

How the results depend on the processing

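Between stroma and epithelium 3 of 94 members passed, and the count was 4 with quantile normalization, 15 after the median of each array was subtracted (all higher in the stroma, 14 of them subunits, with Ndufa13 at 0.77 and Atp5l at 0.74), 6 with an offset of 16 and 7 of 90 with a filter on mean log2 signal of at least 5. It was 1, Ndufaf2, without the replicate block that pairs the compartments of a gland, and 0 among the 74 structural subunits alone. With an array left out it was 2 to 5. Subtracting the array medians moved the member median to 0.44 between stroma and epithelium, and to −0.31 for ERKO against wild type, −0.46 for BPA against vehicle and −0.37 for EE2 against vehicle in the epithelium. Under the methods' t-test, at an unadjusted p under 0.05 and at least 2-fold, the members past the threshold were 8 for BPA (9.21% of all genes) and 1 for EE2 (3.97%) in the epithelium, and 1 each for BPA (2.76%), EE2 (2.91%) and BPA against EE2 (2.45%) in the stroma, and 0 after Benjamini-Hochberg adjustment. With an array left out, the member median ranged over 0.36 to 0.58 for BPA, 0.07 to 0.25 for EE2, 0.16 to 0.41 for BPA against EE2 and 0.12 to 0.27 for ERKO in the epithelium, 0.02 to 0.38, −0.01 to 0.20, −0.01 to 0.34 and −0.11 to 0.15 in the same order in the stroma, and 0.00 to 0.07 between compartments. The cause of these shifts was not tested. A block on the replicate number changed no call among exposures and genotypes, where the count stayed at 0. The labels name no litters, so that fetuses of 1 exposure with the same replicate number were taken as littermates. Such fetuses of both genotypes had mean residual correlations of 0.017 (stroma) and 0.039 (epithelium). A block on these presumed litters was fitted for ERKO against wild type alone, where the count stayed at 0. The exposure comparisons could not take this block, since the fetuses of a litter shared 1 exposure. Cox8b passed under every setting except without the block (adjusted p = 0.051), Ndufaf2 failed with quantile normalization (0.087) and subtracted medians (0.37), and Sdhaf3 failed under both (0.28 and 0.30) and without the block (0.13). Leaving out the 3 glands of high muscle signal or the gland with the dimmest arrays, and a choice of probe sets without a suffix, were added after seeing the data. Without the 3 glands 4 members passed, and without the dimmest gland 3 did, with Ndufaf5 in place of Sdhaf3 (adjusted p = 0.070). Across the named genes 6869 values kept their direction and their side of the threshold, 23 newly passed, 33 no longer passed, 327 that passed under neither setting turned their sign, and none that was called reversed. The filter, the other blocks and the use of only the arrays compared left the changes themselves as they were. Leaving out either array of a gland gave the same fit between compartments. The count of 6869 thus does not measure stability. The dim probe sets of Ndufb4, Ndufb1, Cox7c and most assembly factors and isoforms limit what can be read from those genes.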
